A study of Mus musculus with 62 samples.

Results

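At 4 weeks (wk) after injection, the cerebellum of mice carrying a melanoma that causes cachexia was compared with that of mock-injected mice. The 10 libraries were chosen by their labels, 5 of cachectic melanoma (CAC) and 5 of mock injection at that time, out of 62 libraries of 3 treatments and 4 times. Cachexia is the loss of muscle and fat that can accompany a tumour, and the question was how far the cerebellum had changed by this time. Values were transcripts per 1e+06 transcripts (TPM), a level per transcript length, so the sequencing depth is unknown. All mice were female and 2 months old, and the groups differed in the injection: cachectic melanoma cells in CAC, mock in the controls and non-cachectic melanoma cells (NCAC) in 5 further libraries used beside them. The strain is named as C57BL6/J in the sample fields and as NCI Ath/nude in the series text. The treatment field names cachectic cells for every sample, so groups were taken from the sample descriptions. The extraction protocol mentions LLC cells, whereas the descriptions name melanoma cells. Replicates were called biological, but no animal is named for any library. The p-values then measure the spread between libraries of a group, which may in part be technical. That spread was estimated from all 62 libraries.

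Tumours and the inflammation around them release cytokines of the interleukin-6 (IL-6) family, which act through a shared receptor chain and the transcription factor STAT3 to raise acute-phase genes and their own inhibitor, Socs3. Illness and loss of food intake also raise glucocorticoids, adrenal steroids that cross into the brain and switch on genes such as Fkbp5, Plin4 and Sult1a1 in glia and vessels. In the cerebellum the bulk of the RNA comes from granule neurons and Purkinje cells, so genes of glia and vessels are read against a large neuronal background.

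The 10 libraries carried the labelled tissue: medians of 1000 TPM in CAC and 1070 in mock were measured for Gabra6, a granule cell receptor subunit, and of 472 and 478 for Pcp2, a Purkinje cell gene. The 8 genes of the melanocytic list summed to 30.8 to 42.6 TPM in CAC and 32.7 to 42.2 in mock, mostly from Sox10, which oligodendrocytes also express. Of its pigment genes, Tyr and Mlana were at or below 0.307 TPM in all 10 libraries, Pmel at or below 1.58 and Dct at or below 0.784. Tyrp1 was at 0.291 to 0.696 TPM in CAC and 0.132 to 0.406 in mock, and was below the filter for testing. Tissue carried along in dissection varied. Ttr, a choroid plexus transcript, ranged from 161 to 5620 TPM in CAC and from 13.9 to 5420 in mock, and the summed level of 8 red blood cell genes ranged from 1593 to 3787 TPM in CAC and from 1080 to 1993 in mock. Genes of neighbouring regions were low to moderate: 8 forebrain genes summed to 176.6 to 223 TPM in CAC and 151 to 176.8 in mock, and 8 brainstem genes to 30.9 to 43.1 and 24.3 to 38.9. The 2 brainstem genes tested had log2 changes of 1.16 (Dbh) and 0.023 (Slc6a5). Their mean log2 level was 2.784, 3.218, 3.645, 3.641 and 3.568 in CAC replicates 1 to 5. It was 2.513 to 3.046 in mock and 2.486 to 4.208 in NCAC. A difference in dissection between the groups was not tested. In such bulk tissue, fewer cells of a type and less RNA per cell cannot be told apart.

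Lrg1 was the only gene past the adjusted threshold of 0.05 among 14399 tested (limma, 0.00694%). It encodes a leucine-rich secreted glycoprotein of the acute phase, known from liver, neutrophils and vessels, and in mm10 it lies on the minus strand at chr17:56119678-56122001. The region before its start is shown because STAT3 acts on some acute-phase genes. Whether STAT3 acts on Lrg1 here was not tested. RefSeq's start region on build GRCm38.p6, limited to the 195 bases that lie outside the GENCODE gene, is chr17:56122002-56122196 on the minus strand, written 5′ to 3′.
Lrg1 promoter: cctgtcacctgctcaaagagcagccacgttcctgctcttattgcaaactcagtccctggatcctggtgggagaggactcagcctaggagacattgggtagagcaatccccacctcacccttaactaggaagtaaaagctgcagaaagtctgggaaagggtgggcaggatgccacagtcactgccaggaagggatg
The letters TTCNNNGAA, a form in which STAT factors bind and which reads the same on both strands, were not found in the 250 bases before the RefSeq start of Lrg1. They were present in 2306 of 32851 such windows, 7.02%.

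The 5 CAC libraries, replicates 1 to 5, held 5.15, 10.3, 4.47, 7.28 and 2.81 TPM of Lrg1, and the mock libraries 2.52, 2.06, 0.991, 1.86 and 0.992. Every CAC library was above every mock library, with CAC replicate 5 only just above mock replicate 1. Lrg1 rose from 1.68 ± 0.677 TPM (SD, n = 5) to 6.01 ± 2.9 (SD, n = 5), a change of 1.32 ± 0.25 (SE) on the log2(TPM + 1) scale (limma, adjusted p = 0.0435). The NCAC libraries of the same week lay within the mock range or just below it, from 0.945 to 2.22 TPM with a mean of 1.66. In these NCAC libraries the choroid plexus list was at mean log2 levels of 4.903 to 5.263, and in CAC at 4.003 to 5.22. The summed level of 8 neutrophil genes was 4.01 to 9.52 TPM in CAC and 1.81 to 7.75 in mock, and the granule genes Ngp, Camp and Mpo were at or below 1.17 TPM in all 10 libraries. Against mock of the same week, the change of Lrg1 was 0.13 at 2 wk, 2.21 at 6 wk and 2.52 at 8 wk. The gain from 2 to 4 wk was 1.20 on the log2 scale and that from 4 to 8 wk also 1.20; neither difference passed the threshold (limma, adjusted p = 1 and 0.225). The call at 4 wk was lost in 14 of 20 other settings in which Lrg1 was tested, among them leaving out CAC replicate 2 (adjusted p = 0.784), 3 or 4, or mock replicate 2, 3, 4 or 5. Fitting only the 10 libraries compared (limma, adjusted p = 0.592) or only the 15 libraries of 4 wk (limma, adjusted p = 0.233) also lost it. The change of Lrg1 stayed between 1.13 and 1.73.

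**Figure D1:**
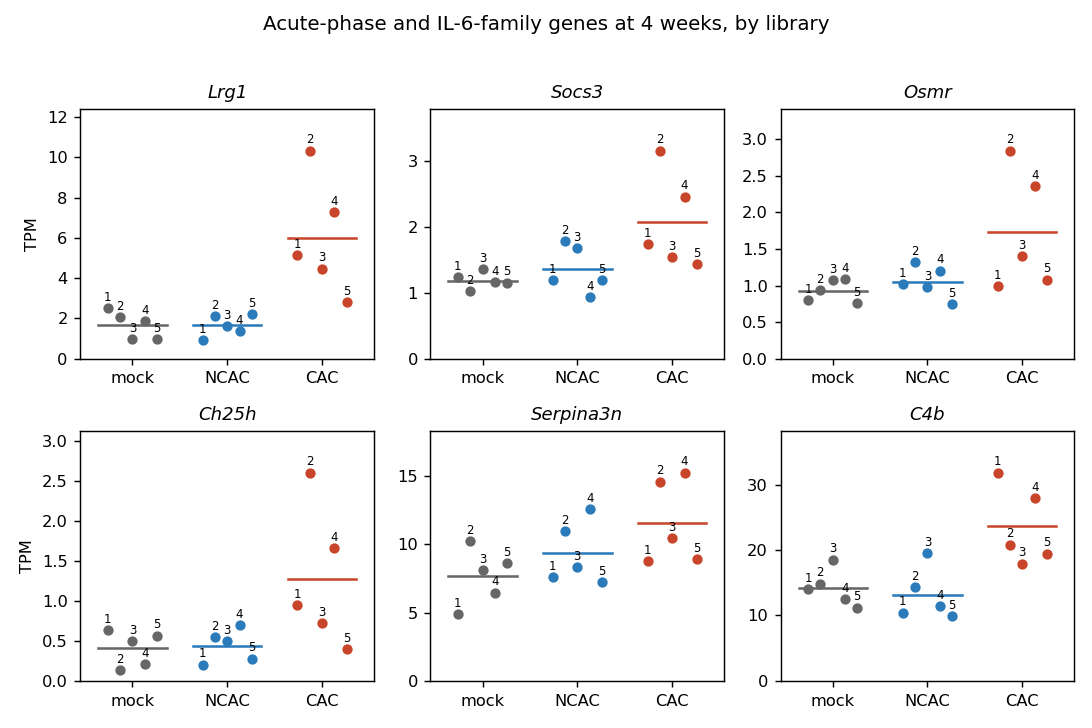
TPM of 6 acute-phase and IL-6-family genes in the mock, NCAC and CAC libraries of 4 wk; each point is 1 library with its replicate number, and the line is the group mean (n = 5). For Lrg1 and Socs3 all CAC points lie above all mock points, whereas Osmr, Ch25h, Serpina3n and C4b overlap.

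Of the 25 genes of the IL-6 and STAT3 list, 19 were tested. None passed the adjusted threshold, 4 were higher at an unadjusted p under 0.05 and 0 were lower, beside 5.29% and 2.69% of all genes tested. The list's median change was 0.0549, against 0.013 over all genes. The cytokine genes Il6, Osm and Lif were below the filter of a mean of 1 TPM, so the list speaks of receptors and downstream genes.

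Among the receptors, Osmr, the receptor subunit for oncostatin M, was at 0.998, 2.85, 1.4, 2.36 and 1.08 TPM in CAC replicates 1 to 5, and at 0.758 to 1.09 in mock. CAC replicates 2 and 4 stood well above mock, and replicates 1 and 5 lay in the mock range. Its log2 change was 0.46 ± 0.12 (limma, adjusted p = 0.361). Il1r1, the signalling receptor for interleukin-1, differed by 0.32 ± 0.15 with CAC from 3.51 to 7.93 TPM and mock from 3.16 to 4.72. Il6ra, the ligand-binding receptor for IL-6, differed by 0.18 ± 0.10, and Il6st, the shared signalling chain gp130, by 0.03 ± 0.06.

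Downstream, Socs3, the feedback inhibitor that STAT3 induces, was at 1.74, 3.16, 1.55, 2.46 and 1.44 TPM in CAC and at 1.24, 1.02, 1.36, 1.16 and 1.16 in mock. The groups did not overlap, with CAC replicate 5 closest to mock. Such separation upward was seen in 84 of all genes tested (0.583%). The change was 0.46 ± 0.13 and did not pass the adjusted threshold (limma, adjusted p = 0.4). Stat3 itself differed by 0.11 ± 0.05, with replicates 2 and 4 at 21.8 and 22.8 TPM and the other CAC libraries at 17.5 to 18.1, inside the mock range of 17.4 to 18.5. Cebpd, a transcription factor of the acute phase, reached 15.7 and 9.61 TPM in replicates 2 and 4, but mock replicate 5 was at 8.19 and CAC replicate 5 at 1.92.

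In the acute-phase and inflammation list, 14 of 30 genes were tested, with a median change of 0.215. At an unadjusted p under 0.05, 5 were higher (Lrg1 among them) and 0 lower, beside 5.29% and 2.69% of all genes. Ch25h, which makes 25-hydroxycholesterol in inflamed tissue, was at 0.95, 2.61, 0.722, 1.67 and 0.402 TPM in CAC and 0.133 to 0.631 in mock, a log2 change of 0.62 ± 0.23 (limma, adjusted p = 0.538). Replicate 5 of CAC lay inside the mock range and the other 4 above it. Serpina3n, a serine protease inhibitor of reactive astrocytes, was at 8.78 to 15.3 TPM in CAC and 4.87 to 10.2 in mock. Its near copy Serpina3h, annotated as a transcribed pseudogene, was at 0.505 to 3.15 TPM in CAC and 0.238 to 0.78 in mock. How reads shared between these copies were assigned is not given, so they cannot be fully separated. Lcn2, a siderophore-binding protein of inflammation, overlapped widely, with CAC from 0.207 to 2.15 TPM and mock from 0.146 to 0.779.

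C4b, a complement component made by glia, differed from these in its order of libraries. It was highest in CAC replicates 1 and 4, at 31.8 and 27.9 TPM, and at 17.9 to 20.8 in the other CAC libraries, against 11.2 to 18.5 in mock. Its log2 change was 0.68 ± 0.27 (limma, adjusted p = 0.574), and CAC replicate 3 overlapped mock replicate 3. Of the 10 complement genes tested, 2 were higher at an unadjusted p under 0.05 and 0 lower. Of all genes tested, 5.29% were higher and 2.69% lower at that level. In the interferon response list, 0 of 25 tested genes reached that level in either direction, with a median change of -0.0482, and in the list of 12 MHC genes also 0.

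Past the adjusted threshold there was a single gene, and 1149 genes had an unadjusted p under 0.05 where 720 would be expected. Without CAC replicate 2 the count was 620, below that number, and on leaving out any other library it was 981 to 1511. Of the 1149, 762 were higher and 387 lower. Libraries did not overlap for 84 genes higher in CAC and 70 lower (0.486%). In all, 8177 genes (56.8%) had a change above 0. From here the genes are described by their values, since none but Lrg1 passed.

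Among named genes whose libraries did not overlap, those most above mock after Lrg1 were Rprml, Gpx3 and Apoc1. Rprml, a homologue of the cell-cycle gene Reprimo, was at 4.36 to 7.89 TPM in CAC and 1.61 to 3.71 in mock. Gpx3, the secreted glutathione peroxidase, was at 12.5, 20, 18.6, 20.6 and 12.6 TPM in CAC and 5.73 to 12.2 in mock. Mock replicate 4, at 12.2, came close to the lowest CAC library, and the NCAC libraries, at 9.93 to 18.5 TPM, spanned the gap. Apoc1, an apolipoprotein, was at 20.5, 19.2, 15.7, 17.3 and 11.9 TPM in CAC and at 6.15 to 10.5 in mock, with NCAC at 6.43 to 13.7. Its log2 change was 0.86 ± 0.20 (limma, adjusted p = 0.279), beside 1.05 at 8 wk. The next genes by size were Nrn1l, Socs3, Plekha4, Rilp, Foxj1, Magix, Olfm2 and Cbs, at log2 changes from 0.57 down to 0.33. Cbs, which makes cystathionine from homocysteine, was at 25.2 to 30.5 TPM against 19.5 to 24.4. Foxj1, the regulator of motile cilia in ependyma, was at 13.6 to 19.2 TPM in CAC and 9.77 to 13.1 in mock, but also at 10.9 to 20.1 in NCAC.

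Grrp1 and Frat2 had the next smallest p after Lrg1 and are named after their values were seen. Frat2, an inhibitor of the kinase GSK3 in Wnt signalling, was at 8.11 to 11.7 TPM in CAC and 5.45 to 8.79 in mock, with 1 mock library, replicate 3, above CAC replicate 5. Its log2 change was 0.56 ± 0.12 (limma, adjusted p = 0.135). Grrp1 was at 3.52 to 7.41 TPM in CAC and 1.88 to 3.58 in mock, a change of 0.68 ± 0.15 (limma, adjusted p = 0.145).

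The lower side was led by Hist2h2aa2, a replication-type histone H2A gene with a near-identical copy, so its level is uncertain. It was listed at 0 in CAC replicates 1, 2 and 4 and at 4.06 and 2.06 TPM in replicates 3 and 5, against 6.11 to 12.3 in mock and 0 to 6.91 in NCAC. Snrnp35, a protein of the minor spliceosome, was at 20.3 to 32 TPM in CAC and 33.5 to 40.5 in mock. Creb3l1, a transcription factor anchored in the endoplasmic reticulum, was at 2.92 to 5.56 against 5.89 to 7.24. Cav1, the coat protein of caveolae in endothelium and other vessel cells, was at 8.96, 8.99, 11, 12.5 and 11.2 TPM in CAC and 12.5 to 14.1 in mock, a log2 change of -0.32 ± 0.09 (limma, adjusted p = 0.4). Its libraries touched at 12.5, with CAC replicate 4 and mock replicate 5 almost equal. Alox5ap, which activates 5-lipoxygenase, was at 2.68 to 4.22 TPM against 4.44 to 4.98, and Slc13a3, a carrier of dicarboxylates, at 11.1 to 16.6 against 17 to 20.7. The other 6 named genes, Erich6, Sypl2, Mfi2, Pgbd1, Ltbp4_1 and Coq4, had changes from -0.31 to -0.23.

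The glucocorticoid response list was read from receptor to targets. Nr3c1, the glucocorticoid receptor, differed by -0.04 ± 0.07 and Nr3c2, the mineralocorticoid receptor, by 0.04 ± 0.07. All 30 genes of the list were tested, and 28 had a change above 0, beside 56.8% of all genes, with a median of 0.225. But 4 were higher at an unadjusted p under 0.05 and 0 lower, beside 5.29% and 2.69% of all genes. None passed the adjusted threshold.

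Fkbp5, the co-chaperone that dampens the receptor, was at 6.2, 30.5, 8.01, 16.8 and 3.8 TPM in CAC replicates 1 to 5 and at 3.96, 4.25, 8.46, 10 and 13.4 in mock. CAC replicates 2 and 4 were above every mock library, and the other 3 lay inside the mock range or just below it. The log2 change was 0.43 ± 0.37 (limma, adjusted p = 0.798).

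Plin4, a lipid droplet coat protein, was at 4.52, 33.7, 5.89, 18.2 and 1.41 TPM in CAC and 1.21, 1.72, 6.23, 11.5 and 13.7 in mock. The same 2 libraries led. Sult1a1, a sulfotransferase, was at 11.4, 45.5, 16.2, 37.3 and 9.01 TPM against 6.44 to 18.9, and Map3k6, a stress kinase, at 1.61, 12.7, 2.2, 7.65 and 0.806 against 0.629 to 3.62. For Zbtb16, a zinc finger factor induced by the steroid, the spread in mock was itself wide, from 2.81 to 20.6 TPM, with CAC from 3.6 to 34.6.

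Mt1, a metal-binding metallothionein, was at 749 to 1936 TPM in CAC and 609 to 1233 in mock, and Mt2 at 416 to 1450 and 344 to 1075. Tmem252 reached 8.08 and 4.26 TPM in CAC replicates 2 and 4, and the other 3, at 0.855 to 2.1, lay within the mock range of 0.661 to 2.26. Averaged over the list, the log2 level was 4.84, 6.04, 5.13, 5.61 and 4.5 in CAC and 4.45, 4.63, 4.9, 5.26 and 5.43 in mock. CAC replicate 5 was at the low end of mock, and NCAC ran from 4.43 to 5.25. Gpd1, the cytosolic glycerol-3-phosphate dehydrogenase, had the smallest p of the list with another order, at 347 and 315 TPM in CAC replicates 3 and 5 and 228 in replicate 4, against 222 to 260 in mock.

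**Figure D2:**
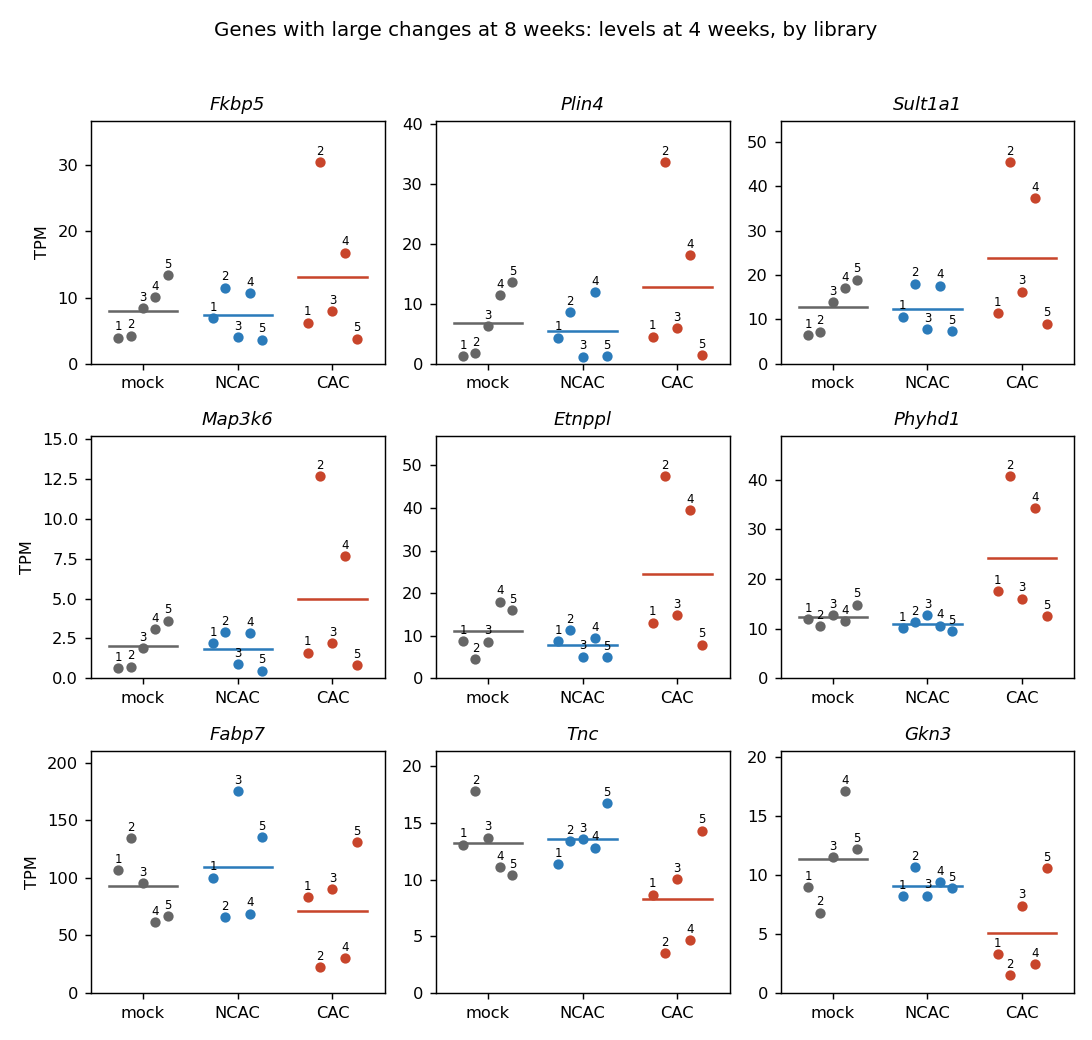
TPM at 4 wk of 9 genes with large changes at 8 wk, for mock, NCAC and CAC; each point is 1 library with its replicate number and the line is the group mean (n = 5). CAC replicates 2 and 4 are the highest for Fkbp5, Plin4, Sult1a1, Map3k6, Etnppl and Phyhd1 and the lowest for Fabp7, Tnc and Gkn3, while the other CAC libraries mostly lie among mock and NCAC.

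The genes that separated CAC from mock at later times were then followed at 4 wk. The 4 wk comparison shares no library with those of 6 and 8 wk, although all were fitted together, and genes of a set move together, so the counts below are a description. At 8 wk, 1933 genes rose (13.4%) and 1057 fell (7.34%), and at 6 wk 203 rose (1.41%) and 45 fell (0.313%) past the adjusted threshold (limma). Of those that rose at 8 wk, 1766 (91.4%) had a change above 0 at 4 wk, beside 56.8% of all genes, with a median of 0.074. Of those that fell, 886 (83.8%) were below 0 at 4 wk, beside 43.2% of all genes. For the 6 wk calls these numbers were 190 of 203 (93.6%) and 41 of 45 (91.1%). Without CAC replicate 2 the shares were 74.5% and 72% for the 8 wk genes and 82% and 90.4% for those higher and lower at 6 wk, beside 51.7% of all genes above 0 and 48.3% below.

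The sizes are given side by side; the 8 wk values are large by the choice of the genes, and no gene passed the direct test of 4 against 8 wk. The 161 genes that rose at least 1.5-fold at 8 wk had a median log2 change of 0.273 at 4 wk and 0.798 at 8 wk, and 29 of them reached at least 50% of their 8 wk log2 change. The 80 genes that fell at least 1.5-fold had medians of -0.141 and -0.723, and 8 reached that share. In NCAC at 4 wk, which shares its mock libraries with CAC, the medians were -0.0414 and 0.0636. At 2 wk the medians were 0.0832 and -0.0827.

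**Figure D3:**
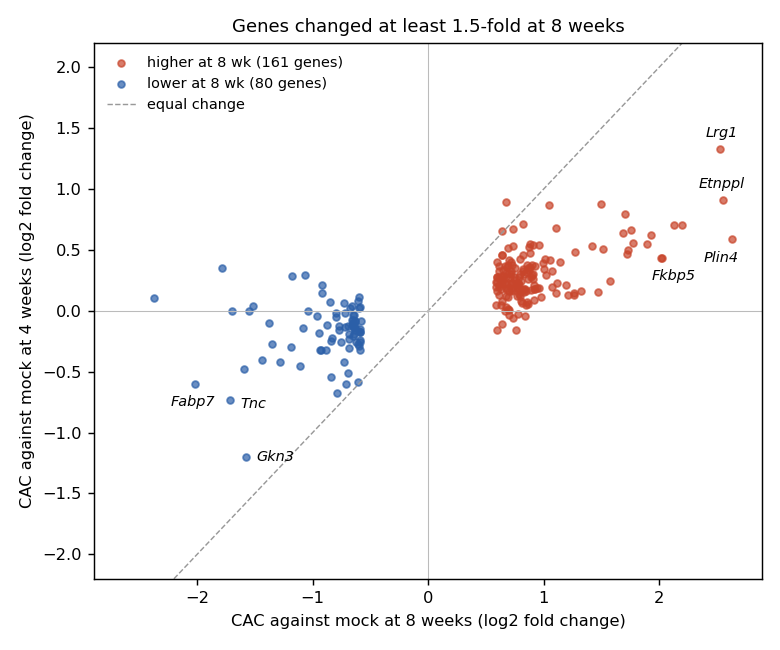
Log2 fold change of CAC against mock at 8 wk (x axis) and at 4 wk (y axis) for the 161 genes that rose and the 80 that fell at least 1.5-fold at 8 wk; each point is 1 gene and the dashed line marks equal change. Most points lie between 0 and the dashed line, with Gkn3 and Lrg1 among the largest at 4 wk.

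The 8 wk genes were not spread evenly over the CAC libraries. Of the 161 genes that rose at 8 wk, 141 (87.6%) were above all 5 mock libraries in CAC replicate 2 and 107 (66.5%) in replicate 4. In replicates 1, 3 and 5 the numbers were 37, 38 and 21 (23%, 23.6% and 13%). Over all genes tested, 35.9% and 21.1% were above every mock library in replicates 2 and 4, and 16.5% to 18.8% in the other CAC libraries, so replicate 5 was no further out on these genes than on all genes. Of the 80 genes that fell at 8 wk, 54 were below all mock libraries in replicate 2 and 36 in replicate 4, but 23, 18 and 6 in replicates 1, 3 and 5. As shares these are 28.7%, 67.5%, 22.5%, 45% and 7.5% in replicates 1 to 5, beside 23.7%, 17.5%, 10.9%, 23.2% and 15.6% of all genes tested, so replicate 1 was near its share of all genes and replicate 5 below it. In the 5 NCAC libraries, 4 to 36 of the 161 (2.48% to 22.4%) and 3 to 10 of the 80 (3.75% to 12.5%) lay outside mock in that direction, beside 8.73% to 18.6% and 13.4% to 21.4% of all genes.

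The mean log2 level over the 161 genes was 3.409, 4.192, 3.538, 3.912 and 3.226 in CAC and 3.1, 3.203, 3.368, 3.508 and 3.59 in mock. Only CAC replicates 2 and 4 exceeded mock replicate 5. Over the 80 genes it was 2.882, 2.323, 2.783, 2.658 and 3.04 in CAC and 2.984, 3.058, 2.914, 2.882 and 2.726 in mock. The mock libraries themselves ran from low on the genes that rose and high on those that fell (replicates 1 and 2) to the reverse (replicate 5). Labels give no feature that tells these libraries apart, and what sets them apart was not tested.

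**Figure D4:**
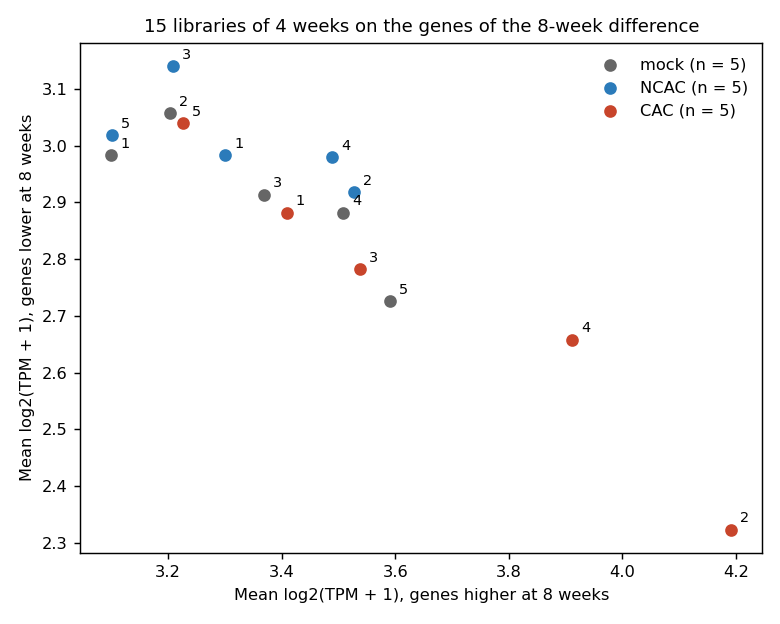
Mean log2(TPM + 1) of the 161 genes that rose at 8 wk (x axis) against that of the 80 genes that fell (y axis) in the 15 libraries of 4 wk, each a point with its replicate number. CAC replicates 2 and 4 lie furthest to the lower right, and the other CAC libraries lie among mock and NCAC.

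Among astrocytes and Bergmann glia, the radial astrocytes of the cerebellum, 4 of 20 genes were higher and 1 lower at an unadjusted p under 0.05. Of all genes, 5.29% and 2.69% were. The list's median change was 0.121. Etnppl, an enzyme of phosphoethanolamine breakdown, was at 13.1, 47.5, 14.8, 39.5 and 7.9 TPM in CAC and 4.53 to 18 in mock. Phyhd1, a dioxygenase, was at 17.5, 40.7, 16.1, 34.3 and 12.5 against 10.5 to 14.9, so that 4 CAC libraries were above mock. Gja1, the main astrocyte gap junction protein, was more even, at 271 to 291 TPM in CAC and 233 to 273 in mock, a change of 0.19 ± 0.05 (limma, adjusted p = 0.29), and NCAC was at 251 to 286. Sox9, an astrocyte transcription factor, was at 34.5 to 40.8 TPM in CAC, and 2 mock libraries, replicates 4 and 5, at 25.6 and 24, stood below the other 3 at 34.1 to 37.3. Tnc, a matrix protein of Bergmann glia, was at 8.67, 3.52, 10, 4.69 and 14.3 TPM in CAC and 10.4 to 17.8 in mock, a log2 change of -0.74 ± 0.31. Fabp7, a fatty acid binding protein of the same glia, was at 82.9, 22.5, 90.2, 30.5 and 131 TPM against 61.9 to 135.

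In vessels there were genes on either side. Of 16 endothelial genes, 2 were higher and 3 lower at an unadjusted p under 0.05, beside 5.29% and 2.69% of all genes. Their median was -0.0676. Gkn3, a gene of arterial endothelium in the brain, was at 3.32, 1.53, 7.4, 2.41 and 10.6 TPM in CAC and at 8.96, 6.8, 11.5, 17.1 and 12.2 in mock. CAC replicates 1, 2 and 4 were below every mock library and replicates 3 and 5 inside their range. Its log2 change of -1.20 ± 0.35 (limma, adjusted p = 0.47) was near that of -1.58 at 8 wk, and NCAC was at 8.21 to 10.7 TPM. Cdh5, the cadherin of endothelial junctions, was at 9.37 to 11.2 TPM in CAC and 10 to 12.8 in mock, and Kdr, the main VEGF receptor, at 3.94 to 6.83 and 4.44 to 9. Vwf, the clotting factor of endothelium, was at 4.96 to 10.9 TPM against 3.84 to 6.3, and Slco1a4, an anion carrier of the blood-brain barrier, at 46 to 66.7 against 39.8 to 49.5. Of 12 mural cell genes, 2 were lower and 0 higher at an unadjusted p under 0.05. Below 0 were 10, beside 43.2% of all genes, with a median of -0.115.

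The choroid plexus list had all 12 genes above 0, beside 56.8% of all genes, with a median of 0.967. At an unadjusted p under 0.05, 3 were higher, beside 5.29% of all genes. Its level in mock, however, ran from 1.827 in replicate 3 to 5.214 in replicate 4, and in NCAC against the same mock libraries the median was 1.19. The red blood cell list had a median of 0.825 with 0 of 7 at that level; CAC replicates 1 and 2 had summed levels of 3787 and 3545 TPM. A shorter set of choroid plexus genes, with a mean log2 level of 1.641 to 5.572 in mock, was used as a covariate. With this covariate, the change of Lrg1 was 1.25 and no longer passed the threshold (limma, adjusted p = 0.152). An unadjusted p under 0.05 was then reached by 964 genes. In that fit 91.7% of the genes that rose at 8 wk and 81.4% of those that fell had their sign at 4 wk. The part of red blood cell RNA in the results was not tested.

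The myelin, neuron and microglia lists had medians near that of all genes, 0.013, whereas the oligodendrocyte precursor list lay lower. At an unadjusted p under 0.05, the myelin list had 2 of 16 genes higher and 0 lower, beside 5.29% and 2.69% of all genes. Its median was 0.0119. Opalin, a myelin membrane protein that fell at 8 wk, was at 5.58 and 6.27 TPM in CAC replicates 2 and 4 and at 14.2 to 26.9 in the other 3, against 9.13 to 20.5 in mock. Oligodendrocyte precursor genes had a median of -0.112 with 0 of 12 at an unadjusted p under 0.05. The medians were -0.00947 for granule cells, -0.00259 for Purkinje cells, 0.0242 for inhibitory interneurons and -0.00389 for microglia. Of the 15 microglia genes, 0 were at that level in either direction.

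**Figure D5:**
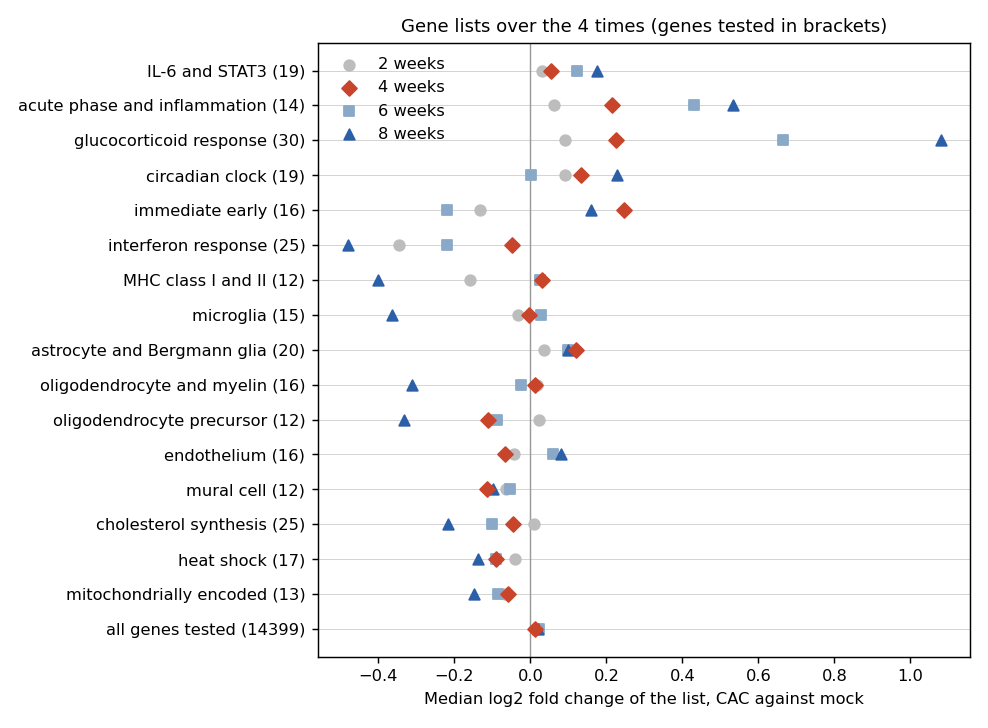
Median log2 fold change of CAC against mock for 16 of the 41 gene lists and for all genes tested (y axis, number of genes tested in brackets) at 2, 4, 6 and 8 wk. Not shown are the choroid plexus, red blood cell and brainstem lists, which had the largest 4 wk medians (0.967, 0.825 and 0.592). The glucocorticoid median is 0.225 at 4 wk and 1.08 at 8 wk, while interferon, MHC and microglia medians, negative at 8 wk, lie near 0 at 4 wk. The interferon median is also negative at 2 wk (-0.347) and 6 wk (-0.219). That of MHC is -0.158 at 2 wk and 0.0241 at 6 wk, and that of microglia -0.0315 and 0.0276.

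Of 19 circadian clock genes, 16 were above 0, beside 56.8% of all genes, with a median of 0.132. At an unadjusted p under 0.05, 4 were higher, beside 5.29% of all genes. Per3, a repressor of the clock, was at 23.2 to 39.8 TPM in CAC and 19.2 to 33.2 in mock, a log2 change of 0.28 ± 0.11 (limma, adjusted p = 0.572). The mean level of the list was 5.637, 5.947, 5.693, 5.889 and 5.441 in CAC and 5.38, 5.455, 5.652, 5.708 and 5.768 in mock, again with replicates 2 and 4 above mock. The hour of collection is not stated. Immediate early genes, which follow neuronal activity or stress within minutes, had a median of 0.247 with 2 of 16 higher. Junb was at 14.6, 46.4, 24, 25.2 and 14.7 TPM in CAC and 10.6 to 15.9 in mock, so that 3 CAC libraries were above mock.

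Among genes of fuel use, Slc2a4, the insulin-regulated glucose carrier GLUT4, was at 12.6, 17.4, 8.01, 11.8 and 7.68 TPM in CAC and 5.98 to 7.99 in mock, with 4 CAC libraries above mock and a log2 change of 0.55 ± 0.16 (limma, adjusted p = 0.4). In its list of fasting and lipid fuel, 2 of 15 genes were higher at an unadjusted p under 0.05 and 0 lower. Over all genes these shares were 5.29% and 2.69%. The median of the list was 0.0514. Txnip, which lowers glucose uptake, was at 22.6 to 65.7 TPM against 16.9 to 42.2. Insr, the insulin receptor, differed by 0.13 ± 0.04, with CAC at 32.7 to 41 TPM and mock at 31.2 to 34.7. Cholesterol synthesis had 0 of 25 genes at that level in either direction and a median of -0.0468.

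Heat shock genes had 14 of 17 below 0, beside 43.2% of all genes, and a median of -0.0917. At an unadjusted p under 0.05, 4 of them were lower, beside 2.69% of all genes. The 4 were Cryab, Hspe1, Hspd1 and Hsp90aa1, chaperones of the cytosol and mitochondria, with log2 changes of -0.24, -0.14, -0.09 and -0.09. Among the 13 mitochondrially encoded genes, 2 were lower. Of these, mt-Nd2, a subunit of complex I, was at 6649 to 8764 TPM in CAC and 8937 to 10130 in mock without overlap, a change of -0.21 ± 0.06 (limma, adjusted p = 0.4). The complex I gene mt-Nd6 was at 380 TPM in CAC replicate 1 and at 100.4 to 111.9 in the other 4, against 237 to 395 in mock and 113 to 262 in NCAC. It is the messenger of the other mitochondrial strand. Its log2 change was -1.18 ± 0.31 (limma, adjusted p = 0.361).

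No gene passed the adjusted threshold for NCAC against mock at 4 wk (306 at an unadjusted p under 0.05), which uses the same 5 mock libraries. Whether CAC and mock differed by more or less at 4 wk than at other times was tested directly. From 2 to 4 wk, 0 genes passed (limma, 337 unadjusted). Between 4 and 6 wk, 0 passed (546 unadjusted), and between 4 and 8 wk 0 passed (0%, 1364 unadjusted), although 8 wk alone had 2990 calls. Without CAC replicate 2 the count for 4 against 8 wk was 152.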

How the data were processed

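Cerebellum RNA was sequenced from stranded mRNA libraries, per the labels' protocols. The authors deposited 1 table of TPM per gene symbol; per the submitters' processing notes the build was mm10. The aligner was not given in the sources used here, nor was the quantifier. By construction TPM sets each library to a total of 1e+06, so depth is unknown and no counting interval is given. Levels were log2(TPM + 1) for the 14399 of 47643 symbols with a mean of at least 1 TPM. All 62 libraries in 12 groups were fitted with limma 3.58.1 in R 4.3.3 (eBayes with trend, 50 residual degrees of freedom), with two-sided p-values adjusted by Benjamini-Hochberg over all genes of a comparison. Fold changes on this scale understate low genes. Named genes were those past the threshold, the 12 highest and 12 lowest changes among non-overlapping genes with an unadjusted p under 0.01, the 10 and 10 of 8 wk, and up to 4 per list by p; clone names were left out. The comparison, the 41 lists (687 genes, 616 tested) and the rules were chosen with earlier results of these data known. Coordinates are from GENCODE M21, and the start region from RefSeq. The fit was tested on simulated data. Alternatives were a pseudocount of 0.1, other filters and scalings, library weights, covariates, smaller fits and leaving out each replicate.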

Additional observations from a re-analysis of the deposited data

Results flagged for a closer look

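Among the genes and lists reported here, 222 sets of 5 libraries were screened for a library far from the other 4 of its group by Dixon's criterion, and 11 stood out, where chance gives about 1 in 20, or 11.1. In CAC replicate 2, Nrn1l was at 3.75 TPM. In CAC replicate 1, mt-Nd6 was at 380 TPM, the immunoglobulin genes Igkc and Ighg2c at 7.74 and 2.07 TPM, and the choroid plexus list at a mean log2 level of 4. In CAC replicate 3 the MHC list was at 3.19, and in CAC replicate 4 the granule cell list at 7.76. In mock replicate 3, Rilp was at 1.81 TPM and Ighg2c at 0.433 TPM. Cdh5 was at 10 TPM in mock replicate 5, and the inhibitory interneuron list at 6.37 in mock replicate 2. The immunoglobulin genes have close copies, so their values are uncertain. The causes were not tested.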

How the results depend on the processing

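For CAC against mock at 4 wk, 1 gene passed in the reported fit. With no filter 3 genes passed (Lrg1 and the low-level Gm10320 and Smim9), and 0 passed with a mean TPM of at least 5, where Lrg1 was not tested. With median-of-ratios scaling, quantile normalization, library weights, the choroid plexus level as covariate, only the 10 libraries compared and only the 15 libraries of 4 wk, 0 passed. Leaving out each replicate in turn gave 0 to 4: Grrp1, Lrg1, Malat1 and mt-Nd6 without CAC replicate 1, Lrg1 and Frat2 without CAC replicate 5, Lrg1 without mock replicate 1, Frat2 without mock replicate 3, and 0 genes without each of the other 6. The fewer samples apart, the cause was not tested. For 4 against 2 wk, 1 gene passed with no filter and with the choroid plexus covariate, and 0 to 1 on leaving out a replicate; for 4 against 6 wk, 1 gene passed with no filter. For 4 against 8 wk, 420 passed with library weights and 0 to 152 on leaving out a replicate, the 152 without CAC replicate 2 and 1 without mock replicate 2. Same-numbered libraries of CAC and mock did not all deviate together (correlations of 0.272, -0.11, -0.0197, 0.178 and -0.19). So few values cannot exclude a pairing by number, and the reported fit used none. With the replicate block the count at 4 wk was again 1, but the gene was Grrp1 (limma, adjusted p = 0.0218), and Lrg1 had an adjusted p of 0.0732. Over 72 named genes and 21 alternatives, 1471 of 1486 values kept their side of the threshold, 13 of them, in 4 uncalled genes, with a change of sign; 14 lost the call (all Lrg1) and 1 gained it. Of 859 list medians, 8 in 4 lists moved. Shares of 8 wk genes with their sign at 4 wk were 80% to 92.9% (higher) and 71.3% to 89.3% (lower) outside the left-out replicates. Over the alternatives, with left-out replicates among them, 46.8% to 58.9% of all genes were above 0 at 4 wk. Depth cannot be judged from TPM.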
